A study of Mus musculus with 2 samples.

Results

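Heat shock proteins and chaperonins were described in lymph node immune cells of heart graft recipients. Members were the genes with symbols beginning Hspa, Hspb, Hspd, Hspe, Hsph or Hsp90, those beginning Dnaja, Dnajb or Dnajc followed by a digit, and the TRiC genes Cct2 to Cct8 with Tcp1. The rule found 81 genes among 27933 symbols of the deposited gene list. Cct6a had no entry under that symbol and was not analysed here. Mice aged 6 to 8 weeks formed 2 groups, each with 1 single-cell RNA library made with a Chromium 3′ kit. In the allogeneic group a Balb/c recipient carried a C57BL/6 heart, so the graft differed from its host in transplantation antigens. In the syngeneic group donor and recipient were both Balb/c. All recipients had therefore undergone transplantation, and no library of animals without a graft was compared here. How many mice went into a library is a detail not given in the sources used here. With 1 library per group no difference below has a replicate check, none was tested, and the library cannot be told apart from the group. Intervals are exact, at 95%, and cover the counting error of unique molecular identifiers (UMIs) only.

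Heat shock proteins bind unfolded or partly folded proteins and use ATP to help them fold, assemble or be degraded. Hsp70 proteins (Hspa genes) take up client proteins delivered by J-domain partners (Dnaj genes), and Hsp90 proteins complete the maturation of kinases, steroid receptors and other clients. TRiC is a ring of related subunits that folds actin and tubulin, and Hsp60 with its lid Hsp10 (Hspd1 and Hspe1) is the matching folding chamber of mitochondria. Some members are constantly made, some are induced by the transcription factor Hsf1 under heat or proteotoxic stress, and those of the endoplasmic reticulum are induced by the unfolded protein response. Lymphocytes raise many chaperones when they are activated and divide. By these roles 10 members were placed in a stress-inducible cytosolic group, 21 in a constitutive cytosolic group, 11 in the endoplasmic reticulum, 8 in mitochondria and 7 in TRiC, and 24 were left without a role group.

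Promoter sequences of 66 members were at hand from RefSeq (build GRCm38.p6, which corresponds to mm10), as windows of 300 bases from 250 before to 50 after an annotated start. The other 15, among them Hsp90aa1, Hsp90ab1, Hspa8 and Cct4, had no window and were not searched. A heat shock element was searched as 3 alternating units, GAANNTTCNNGAA or TTCNNGAANNTTC, which together cover both strands. It was found for 4 of the 66 members (6.06%), Hsph1, Hspd1, Hspe1 and Dnajb6, and for 179 of 27025 genes with a window (0.662%). A looser form, 2 alternating units, was found for 18 of the 66 members (27.3%), against 17.0% of all genes. By role group it was found for 7 of 9 stress-inducible, 2 of 17 constitutive, 1 of 10 reticulum, 2 of 5 mitochondrial and 2 of 6 TRiC genes. Among heat-induced genes, Hspa1a, Hspa1b and Hspb1 held the looser form only, and the windows of Dnajb1 held neither form. The endoplasmic reticulum stress element, searched as CCAAT and CCACG with 9 bases between them on either strand, was found for 3 members (4.55%), Hspa5, Hsp90b1 and Dnajc3, and for 37 of all genes (0.137%). Stretches are shown for members whose levels the results turn on, read 5′ to 3′ on the strand of the gene. Capitals mark the 3-unit heat shock elements and the endoplasmic reticulum stress elements. Hspd1 and Hspe1 lie head to head on chromosome 1, and their annotated spans overlap by 96 bases. In the stretch shown for Hspe1, 4 alternating units follow each other over 18 bases. The same run lies in 1 window of Hspd1 (chr1:55087883-55088182), read on its other strand. A further Hspd1 window (chr1:55088194-55088493), for another annotated start, held no heat shock element.
Hsph1, chr5:149636287-149636316, minus strand: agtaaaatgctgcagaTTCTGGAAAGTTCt
Hspe1, chr1:55087898-55088147, plus strand: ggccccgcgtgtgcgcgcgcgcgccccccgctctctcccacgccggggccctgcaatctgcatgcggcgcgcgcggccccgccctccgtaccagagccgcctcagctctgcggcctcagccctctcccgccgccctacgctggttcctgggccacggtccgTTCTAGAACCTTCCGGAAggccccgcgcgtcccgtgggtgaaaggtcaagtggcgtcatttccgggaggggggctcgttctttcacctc
Hsp90b1, chr10:86705445-86705694, minus strand: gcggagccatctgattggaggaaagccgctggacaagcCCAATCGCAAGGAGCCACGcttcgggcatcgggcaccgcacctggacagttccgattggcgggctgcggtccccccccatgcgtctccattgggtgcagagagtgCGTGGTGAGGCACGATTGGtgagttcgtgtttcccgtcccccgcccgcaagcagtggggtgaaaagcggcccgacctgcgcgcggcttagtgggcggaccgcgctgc
Hspa5, chr2:34771840-34772089, plus strand: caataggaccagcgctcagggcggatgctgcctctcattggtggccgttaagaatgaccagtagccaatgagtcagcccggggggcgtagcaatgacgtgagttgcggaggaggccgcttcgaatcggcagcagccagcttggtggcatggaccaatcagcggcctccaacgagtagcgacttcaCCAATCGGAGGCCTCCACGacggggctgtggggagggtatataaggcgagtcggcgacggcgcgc
Positions are given from the annotated start of the window shown. The element of Hsph1 lay 37 to 49 bases into the transcript, that of Hspe1 89 to 72 bases before the start and that of Hspa5 65 to 47 bases before it. A further Hsph1 window (chr5:149636266-149636565), for another annotated start, also held a heat shock element. Hsp90b1 had 2 stress elements in its window, on opposite strands. A match describes letters in the window and is not evidence of binding.

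The allogeneic library held 3500 barcodes and 8415043 UMIs, and the syngeneic library held 7967 barcodes and 46486632 UMIs. Their lowest barcodes had 150 and 3447 UMIs, and 66 barcode sequences occurred in both libraries. Barcodes were kept if they had 200 or more genes and no more than 10% of UMIs from mitochondrial genes, 2106 (60.2%) and 7957 (99.9%), with medians of 3147 and 4917 UMIs. Haemoglobin genes made up 9.11% of the UMIs of kept allogeneic barcodes and 0.114% of those of syngeneic barcodes. Cells were assigned by lineage marker UMIs to CD4 T (270 allogeneic and 1240 syngeneic cells), CD8 T (477 and 2864), regulatory T with a Foxp3 UMI (94 and 151) and B cells (337 and 1028). Trac, a T cell marker, was at 0 in every T cell set of both libraries, so T cells rested on the other 4 markers. Barcodes that met no rule made up 35.8% of the kept allogeneic and 30.4% of the kept syngeneic barcodes. Cells that express Foxp3 without a Foxp3 UMI remained among the CD4 T cells where they had a Cd4 UMI and no Cd8a or Cd8b1 UMI. Median UMIs per cell were lower in the allogeneic library in each type, 3279 against 4505.5 in CD4 T cells, 4023 against 5195 in CD8 T cells, 3162.5 against 4792 in regulatory T cells and 2284 against 4262 in B cells. A level is the gene's UMIs per 1000000 UMIs of the cell type in that library (CPM). Reads from the 3′ end give a transcript about 1 count whatever its length, so CPM values of different genes were set side by side without division by length.

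Over all deposited barcodes, before the filter, the members took 0.489% of allogeneic UMIs and 0.756% of syngeneic UMIs. There UMIs were seen for 72 and 74 of the 81 members, and 6 had none in either. Within cell types their sums, allogeneic against syngeneic, were 5429 against 6985 CPM in CD4 T and 5731 against 7284 CPM in CD8 T cells. They were 6118 against 9408 CPM in regulatory T and 5247 against 7972 CPM in B cells. Within each cell type Hspa8, the constitutive Hsp70, and Hsp90ab1, the constitutive Hsp90, had the most UMIs of any member. The pair made up 28.0% of the members' UMIs in syngeneic CD4 T cells against 23.4% in allogeneic ones. It made up 29.4% against 26.7% in CD8 T cells, 29.7% against 22.8% in regulatory T cells and 27.6% against 18.0% in B cells. Hsp90ab1 ranked above Hspa8 in syngeneic B cells and below it in the other 7 sets.

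For the comparison of libraries a gene was measured in a cell type where the mean of the 2 libraries' CPM was at least 10, and its ratio was called, as higher or lower, where it was at least 1.5-fold and its interval excluded 1. Of the members 55 were measured in at least 1 cell type, 49 in all 4 and 26 in none. In CD4 T cells 10 of 53 measured members were lower in the allogeneic library, against 8.09% of all 7085 measured genes, and 2 were higher, against 16.9%. In CD8 T cells 9 of 50 were lower, against 8.23% of 6942 genes, and 3 were higher, against 15%. In regulatory T cells 13 of 52 were lower, against 7.13% of 7334 genes, and 2 were higher, against 13.1%. In B cells 17 of 52 were lower, against 12.9% of 7232 genes, and 4 were higher, against 17.9%. As shares, the members that were lower made up 18.9%, 18%, 25% and 32.7% of those measured, in the same order. The median log2 ratio of the measured members was −0.10, −0.11, −0.20 and −0.31, beside 0.10, 0.05, 0.12 and 0.07 for all measured genes.

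The direction held across cell types for many members, though all 4 cell types come from the same 2 libraries and are not independent of each other. Of the 49 members measured in all 4, 21 had ratios below 1 in every type, against 22.4% of the 6168 genes measured in all 4. A further 6 had ratios above 1 in every type and 22 were mixed. No member was called higher in a cell type and lower in another. Called lower in all 4 were 8 of the 49 members, Hsp90aa1, Hsp90ab1, Hsp90b1, Hspd1, Hspe1, Hsph1, Cct4 and Cct5, against 2.14% of those genes. None was called higher in all 4, against 4.73%. They include all 3 Hsp90 genes among the members and the mitochondrial Hsp60 and Hsp10 pair. Cct3 was called lower in 3 types. Of the 55 members measured in any type 20 were called lower in at least 1, against 18.8% of 8260 genes, and 9 were called higher in at least 1, against 29.9%. Near the threshold, 20 ratios with intervals that excluded 1 lay between 1.4-fold and 1.6-fold, and 12 of them were called. The closest inside was Hspa5 in B cells (1.51-fold lower), and just outside were Dnajb1 in CD4 T cells and Dnajc15 in CD8 T cells, both under 1.5-fold.

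Some of these calls ended under other settings, though every ratio of the 8 members stayed below 1 in each setting that gave a value. The ranges of depth described below were not among these settings, and Hsp90b1 was not lower in CD4 T cells above 4917 UMIs. With stricter marker rules 27 of the 32 ratios of the 8 members were still called and 29 were at least 1.5-fold. With every cell thinned to 1000 UMIs 24 were called and 27 were at least 1.5-fold. The calls of Hsp90aa1 in CD4 T cells and Hsp90ab1 in CD8 T cells ended with stricter markers, among deeper cells and without proliferating cells. That of Hspd1 in CD8 T cells ended with a limit of 5% mitochondrial UMIs, among deeper cells and without proliferating cells, and Hspd1 in CD4 T cells ended when thinned. Thinning also ended the calls of Cct5 in the 3 T cell types, Cct4 in CD4 T and regulatory T cells, and Hsph1 in those same types. Stricter markers ended the calls of Cct4 in CD8 T cells and Hsph1 in regulatory T and B cells, and the limit on depth ended those of Cct4 and Hsp90b1 in CD4 T cells and Hsph1 in B cells. Hsph1 thinned in CD4 T and regulatory T cells and with stricter markers in regulatory T and B cells, and Cct4 thinned in regulatory T cells, stayed at least 1.5-fold lower, with intervals that now included 1.

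**Figure D1:**
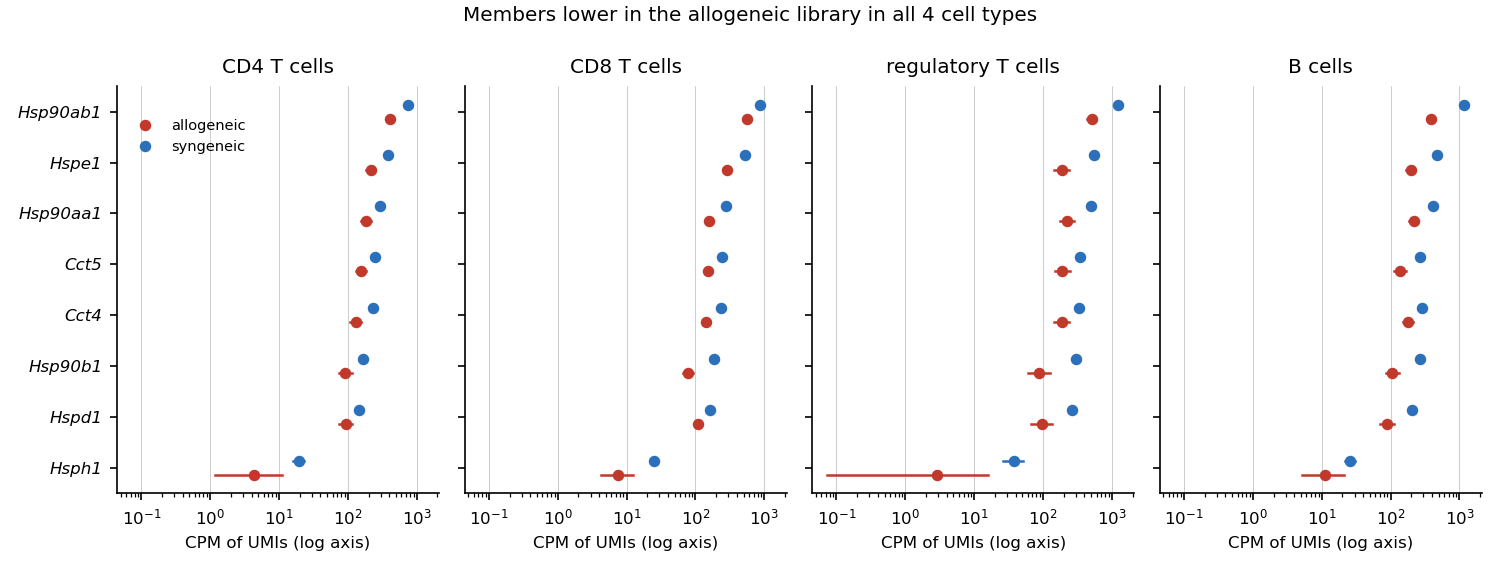
Levels of the 8 members lower in all 4 cell types, as CPM on a log axis, one panel per cell type. Points are the level over all cells of a type in 1 library (red allogeneic, blue syngeneic) and bars are exact Poisson intervals at 95%. Every red point lies to the left of its blue point, and the interval is widest for Hsph1, which had 1 UMI in allogeneic regulatory T cells.

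Hsp90 genes stood at the lower end of the comparison. Hsp90ab1 (chromosome 17, 45567778 to 45573261) had 413 CPM in allogeneic and 749 CPM in syngeneic CD4 T cells, and 560 against 856 CPM in CD8 T cells. It had 512 against 1230 CPM in regulatory T cells and 384 against 1176 CPM in B cells. The level was thus lower by 1.81-fold (CD4 T), 1.53-fold (CD8 T), 2.41-fold (regulatory T) and 3.06-fold (B cells), with log2 ratios of −0.86 (−1.01 to −0.71), −0.61 (−0.70 to −0.53), −1.27 (−1.50 to −1.04) and −1.61 (−1.78 to −1.45). Syngeneic B and regulatory T cells had the higher levels of the 4 syngeneic types, whereas allogeneic B cells were no higher than allogeneic CD4 T cells within counting error.

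Hsp90aa1 (chromosome 12, 110691036 to 110696395), the inducible cytosolic Hsp90, is raised by heat and by activation. Its levels were 183 against 290 CPM in CD4 T cells, 157 against 281 CPM in CD8 T cells, 223 against 491 CPM in regulatory T cells and 216 against 415 CPM in B cells. Log2 ratios were −0.66 (−0.89 to −0.43), −0.84 (−1.01 to −0.68), −1.14 (−1.50 to −0.79) and −0.94 (−1.17 to −0.72). Only in CD8 T cells was its fold larger than that of Hsp90ab1. In B cells it was 0.563 UMIs per Hsp90ab1 UMI in the allogeneic library (0.465 to 0.680) and 0.353 in the syngeneic library (0.336 to 0.370). The intervals of that quotient overlapped in CD4 T and regulatory T cells, and in CD8 T cells it was 0.280 (0.247 to 0.318) against 0.329 (0.318 to 0.340).

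Hsp90b1 (chromosome 10, 86690841 to 86705444) encodes the Hsp90 of the endoplasmic reticulum, which folds integrins and Toll-like receptors. Its levels were 91.7 against 165 CPM in CD4 T cells, 77.8 against 183 CPM in CD8 T cells, 88.6 against 306 CPM in regulatory T cells and 106 against 270 CPM in B cells. These are 1.79-fold, 2.36-fold, 3.45-fold and 2.55-fold lower in the allogeneic library.

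Stress-inducible members did not move as 1 group. Summed over the 10 members, their level was 486 against 647 CPM in CD4 T cells, 468 against 663 CPM in CD8 T cells, 554 against 911 CPM in regulatory T cells and 519 against 730 CPM in B cells. The summed log2 ratio was −0.41 (−0.56 to −0.27), −0.50 (−0.60 to −0.41), −0.72 (−0.95 to −0.49) and −0.49 (−0.64 to −0.34). Hsp90aa1 and Dnaja1, a J-domain partner of Hsp70, supplied most of these UMIs. Without this pair the sums were 107 against 83.7 CPM, 83.3 against 83.8 CPM, 120 against 107 CPM and 119 against 99.2 CPM, with log2 ratios of 0.35 (0.03 to 0.67), −0.01 (−0.25 to 0.22), 0.17 (−0.38 to 0.70) and 0.27 (−0.06 to 0.58). The medians of the measured genes among the other 8 were 0.31, 0.44 and −0.35 in the T cell types, with the other sign than the sum in CD8 T and regulatory T cells, and close to 0 in B cells.

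Hsph1 (chromosome 5, 149616843 to 149636498), an Hsp110 that recharges Hsp70 with nucleotide, had the lowest ratio of any measured member in 3 of the 4 types and was rare. It had 4 UMIs in allogeneic and 121 in syngeneic CD4 T cells (4.32 against 19.3 CPM), 15 and 409 in CD8 T cells (7.48 against 24.8 CPM), 1 and 37 in regulatory T cells (2.86 against 37.3 CPM) and 9 and 137 in B cells (11.2 against 26.0 CPM). Log2 ratios were −2.16 (−4.06 to −0.77), −1.73 (−2.58 to −0.99), −3.71 (−9.05 to −1.14) and −1.22 (−2.38 to −0.25). Dnajb1, the Hsp40 partner of Hsp70 and a standard readout of Hsf1, lay on the other side in every type. It had 58.3 against 39.0 CPM in CD4 T cells, 47.4 against 34.3 CPM in CD8 T cells, 68.6 against 42.3 CPM in regulatory T cells and 64.6 against 35.9 CPM in B cells. Of these only the B cell ratio was called (1.80-fold higher, log2 0.85, 0.38 to 1.30), and the regulatory T cell ratio, log2 0.70 (−0.09 to 1.45), had an interval that included 0. Dnajb4, a related Hsp40, was 2.25-fold higher in CD4 T cells (32.4 against 14.4 CPM) and 3.35-fold higher in regulatory T cells (37.2 against 11.1 CPM, 13 and 11 UMIs). Dnajb1 gave 13.5 UMIs per Hsph1 UMI in allogeneic CD4 T cells (4.98 to 51.3) against 2.02 (1.62 to 2.53) in syngeneic ones, 6.33 (3.65 to 11.8) against 1.38 (1.22 to 1.58) in CD8 T cells and 5.78 (2.82 to 13.3) against 1.38 (1.10 to 1.73) in B cells. In allogeneic regulatory T cells the quotient rests on 1 Hsph1 UMI. These quotients within a cell type do not depend on the total of the library. Whether they change with the depth of the cells was not tested.

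The classic heat-induced genes were almost undetected. Hspa1a and Hspa1b, the inducible Hsp70 pair with near-identical sequence, had 0 or 1 UMI in each cell type of each library. The limit that 0 UMIs allows, 3 UMIs over the cell type, is 3.24 CPM in allogeneic CD4 T, 1.5 CPM in allogeneic CD8 T, 8.57 CPM in allogeneic regulatory T and 3.73 CPM in allogeneic B cells. It is 0.182 to 3.02 CPM in the syngeneic types. Over all kept allogeneic barcodes they had 5 and 2 UMIs. Hspb1, the small heat shock protein Hsp27, had at most 4 UMIs in a cell type. No difference between libraries was detectable within a cell type for these 3 genes at this depth.

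**Figure D2:**
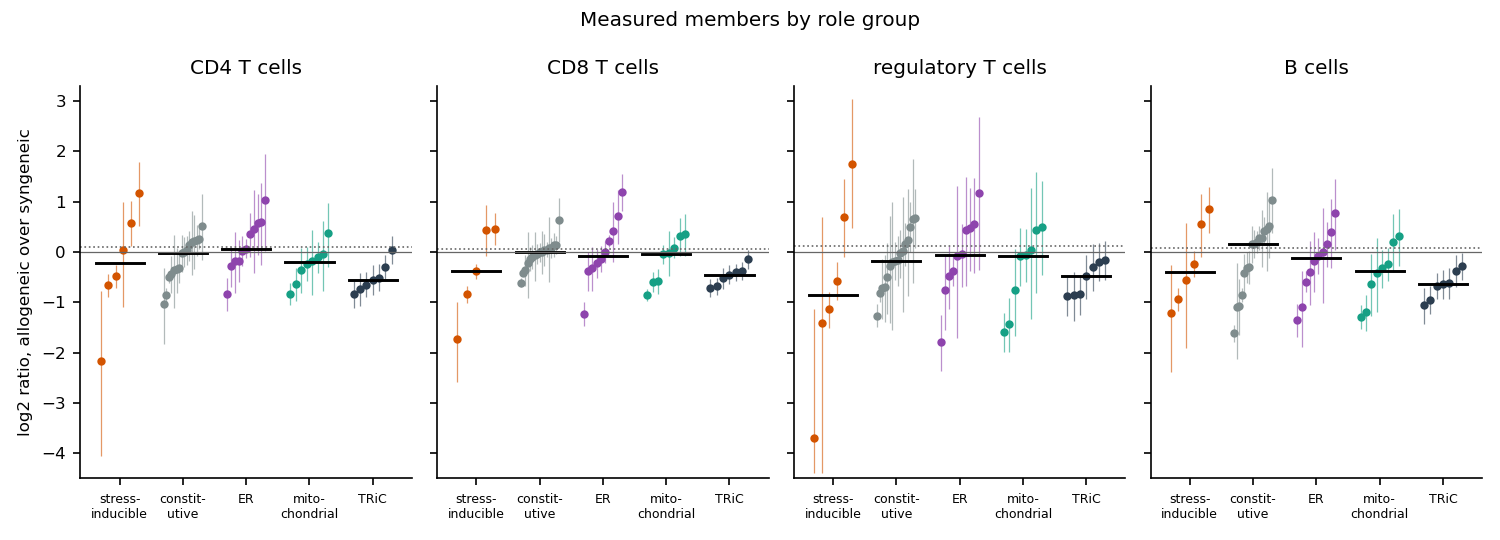
Log2 ratio, allogeneic over syngeneic, of each measured member with a role group (points) with its exact 95% interval (thin bars, cut off at the lower axis limit for 2 members in regulatory T cells), one panel per cell type. Thick bars mark the median of a role group, the solid line marks 0 and the dotted line the median of all measured genes. TRiC subunits lie below 0 with 1 exception, Tcp1 in CD4 T cells, whereas the other groups spread to both sides.

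Constitutive cytosolic members were led by 2 genes. Hspa8 (chromosome 9, 40801276 to 40805202) had 855 against 1209 CPM in CD4 T cells, 969 against 1286 CPM in CD8 T cells, 886 against 1568 CPM in regulatory T cells and 562 against 1021 CPM in B cells. It was called in regulatory T cells (1.77-fold lower) and in B cells (1.82-fold lower), and it was 1.41-fold and 1.33-fold lower in CD4 and CD8 T cells with intervals below 1. The summed log2 ratio of the 21 members was −0.36, −0.29, −0.62 and −0.60 across the 4 types. Without Hspa8 and Hsp90ab1 it was −0.01 (−0.10 to 0.08), 0.01 (−0.05 to 0.08), −0.08 (−0.23 to 0.08) and 0.04 (−0.05 to 0.13). In B cells the sum was below 0 while the group's median log2 ratio was 0.17. Hspa4, a further Hsp110 protein, was 1.64-fold lower in regulatory T cells (85.7 against 140 CPM), and Dnajc2, a partner of Hsp70 at the ribosome, was 1.62-fold lower there (71.4 against 116 CPM). Hspa14, the Hsp70 that works with Dnajc2 at the ribosome, was 2.10-fold lower in B cells (37.3 against 78.1 CPM). Hspbp1, a nucleotide exchange factor of Hsp70, was 2.04-fold lower in CD4 T cells (17 and 234 UMIs) and 2.14-fold lower in B cells (11 and 154 UMIs). On the higher side were Dnajc5, the cysteine string protein of secretory vesicles, in regulatory T cells (114 against 71.6 CPM) and Dnajc17, a J protein linked to splicing, in CD8 T cells (26.9 against 17.3 CPM) and B cells (34.8 against 16.9 CPM). Dnajc8, also linked to splicing, and Dnaja2, an Hsp40, were called in no type, with log2 ratios from −0.18 to 0.26 and from −0.32 to 0.17.

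In the endoplasmic reticulum Hspa5 and Hsp90b1 differed from each other. Hspa5, the Hsp70 named BiP that senses unfolded proteins, had 287 against 275 CPM in CD4 T cells, 301 against 258 CPM in CD8 T cells, 326 against 421 CPM in regulatory T cells and 262 against 395 CPM in B cells. Only the B cell ratio was called, at 1.51-fold lower. Hspa5 therefore gave 3.13 UMIs per Hsp90b1 UMI in allogeneic CD4 T cells (2.44 to 4.04) against 1.67 (1.54 to 1.80) in syngeneic ones. The quotient was 3.87 (3.24 to 4.64) against 1.41 (1.34 to 1.48) in CD8 T cells, 3.68 (2.45 to 5.66) against 1.38 (1.19 to 1.6) in regulatory T cells and 2.48 (1.92 to 3.23) against 1.46 (1.37 to 1.57) in B cells. Over all cells of a type, the intervals of the 2 libraries did not overlap in any of the 4 types. In CD4 T cells above 4917 UMIs, the syngeneic median, the gap was smaller. There 19 allogeneic cells had 45 Hspa5 and 23 Hsp90b1 UMIs, and 434 syngeneic cells had 879 and 506. In CD8 T cells of that depth the UMIs were 256 and 79 against 3042 and 2250. The part of depth in this quotient was not tested. Both promoters held the stress element shown above.

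Other reticulum members were lower and higher. Dnajc1, a membrane J protein, was lower in regulatory T cells (54.3 against 91.7 CPM) and B cells (21.1 against 45.1 CPM). Dnajb14 and Dnajb12, J proteins of the same membrane, were higher in CD8 T cells (39.4 against 17.3 CPM and 18.4 against 11.2 CPM). Dnajb9, a J protein that acts on BiP and is induced by the unfolded protein response, was higher in B cells (28.6 against 16.7 CPM). Hspa13 was higher in CD4 T cells (13 and 43 UMIs, 14.0 against 6.87 CPM). Dnajc3 and Dnajb11, further partners of BiP, were called in no type, with log2 ratios from −0.05 to 0.16 and from −0.48 to −0.07. The group's summed log2 ratio was −0.08 (−0.19 to 0.03), −0.10 (−0.18 to −0.02), −0.50 (−0.69 to −0.31) and −0.55 (−0.67 to −0.42), and in CD4 T cells its median, 0.06, had the other sign.

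Hspe1 and Hspd1 were lower together. Hspe1 (chromosome 1, 55088148 to 55091317) had 214 against 380 CPM in CD4 T cells, 286 against 518 CPM in CD8 T cells, 186 against 559 CPM in regulatory T cells and 195 against 475 CPM in B cells. Its folds were 1.78, 1.81, 3.01 and 2.43 lower. Hspd1 (chromosome 1, 55077833 to 55088243) had 92.8 against 144 CPM, 109 against 164 CPM, 97.2 against 262 CPM and 89.5 against 206 CPM in the same order, and its folds were 1.55, 1.51, 2.70 and 2.3 lower. Hspe1 UMIs per Hspd1 UMI were 2.3 (1.78 to 3.0) against 2.64 (2.44 to 2.85) in CD4 T cells, 1.91 (1.24 to 2.99) against 2.13 (1.84 to 2.48) in regulatory T cells and 2.18 (1.64 to 2.92) against 2.31 (2.15 to 2.49) in B cells, with overlapping intervals. In CD8 T cells they were 2.63 (2.24 to 3.09) against 3.16 (3.03 to 3.3).

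The mitochondrial group was not uniform. Hspa9, the Hsp70 of the matrix, had log2 ratios between −0.24 and −0.05 and was called in no type. The same held for Dnajc19, a J protein of the import motor, with values between −0.33 and 0.09. Dnajc15, a J protein of the inner membrane, was 1.55-fold lower in B cells (32.3 against 50 CPM). Summed log2 ratios of the 8 members were −0.48, −0.48, −0.90 and −0.79, and group medians were −0.20, −0.03, −0.07 and −0.37.

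TRiC subunits lay below 1 in 27 of 28 ratios. In B cells 5 of the 7 subunits were called lower, in CD4 T and regulatory T cells 3 and in CD8 T cells 2. Cct5 had 157 against 245 CPM in CD4 T cells, 154 against 247 CPM in CD8 T cells, 191 against 350 CPM in regulatory T cells and 137 against 264 CPM in B cells. Cct4 was lower by 1.79-fold, 1.64-fold, 1.79-fold and 1.59-fold in the same order. Cct3 was 1.67-fold lower in CD4 T, 1.82-fold lower in regulatory T and 2.09-fold lower in B cells, and 1.44-fold lower in CD8 T cells. Cct8 and Cct2 were called in B cells (1.56-fold and 1.54-fold lower). Cct7 and Tcp1 were called in no type, with log2 ratios from −0.40 to −0.17 and from −0.37 to 0.04. The ring holds its subunit proteins in equal number, which UMIs do not measure. Cct5 gave 1.15 UMIs per Tcp1 UMI (0.9 to 1.47) in allogeneic CD4 T cells against 1.85 (1.70 to 2.02) in syngeneic ones. The quotient was 1.26 (1.06 to 1.49) against 1.82 (1.73 to 1.91) in CD8 T cells and 1.16 (0.87 to 1.54) against 1.73 (1.58 to 1.89) in B cells. In regulatory T cells it was 1.31 (0.90 to 1.93) against 1.96 (1.63 to 2.36), with overlapping intervals. The summed log2 ratio of the 7 was −0.51 (−0.62 to −0.41), −0.49 (−0.56 to −0.42), −0.54 (−0.69 to −0.39) and −0.66 (−0.77 to −0.55). Among members with no role group, Hspb11, a part of the ciliary transport complex in spite of its name, was lower in CD8 T cells (23.9 against 42.3 CPM), and Dnajc25 was higher in B cells (16 and 38 UMIs, 19.9 against 7.22 CPM).

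**Figure D3:**
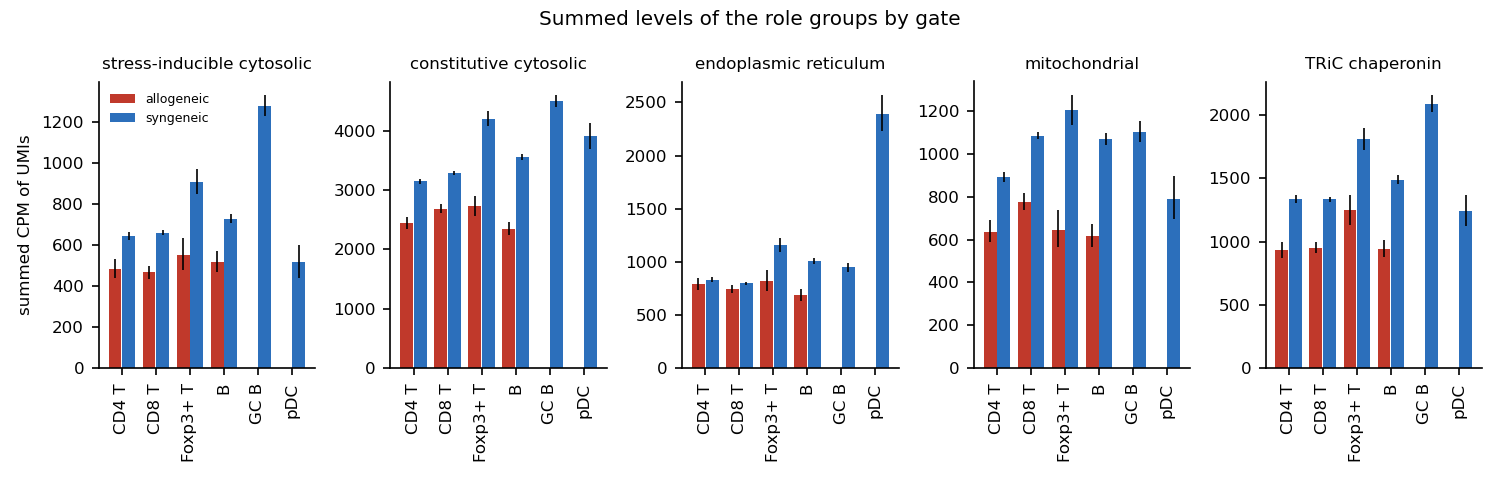
Summed CPM of each role group by cell type and library, as bars from 0 with exact 95% Poisson intervals. Foxp3+ T are the regulatory T cells, GC B the germinal centre B cells and pDC the plasmacytoid dendritic cells, the last 2 shown for the syngeneic library only. Germinal centre B cells had the tallest stress-inducible and TRiC bars, and plasmacytoid dendritic cells the tallest endoplasmic reticulum bar.

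Within the syngeneic library alone, germinal centre B cells (158 cells) and plasmacytoid dendritic cells (44 cells) had different chaperone profiles. Germinal centre B cells had 860 CPM of Hsp90aa1, against 415 CPM in the other B cells, and 1382 against 1176 CPM of Hsp90ab1. Their stress-inducible sum was 1280 against 730 CPM, and their TRiC sum 2089 against 1490 CPM. Of these cells 75.9% had a UMI of a proliferation marker, against 13.4% of the other B cells, and their median depth was 9626 against 4262 UMIs. Plasmacytoid dendritic cells, secretory cells that make interferon, had 894 CPM of Hsp90b1 and 683 CPM of Hspa5, against 165 to 306 CPM and 258 to 421 CPM in the 4 lymphocyte types. Their endoplasmic reticulum sum was 2392 CPM, against 799 to 1156 CPM in those types, and their Hspd1 level, 62.1 CPM, was below the 144 to 262 CPM seen there. The allogeneic library had 8 germinal centre B and 0 plasmacytoid dendritic cells under the same rule, so these levels were not compared between libraries.

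Cells with UMIs of proliferation markers were more frequent in the syngeneic library, at 13.6% against 3.33% of CD4 T, 13.7% against 3.56% of CD8 T, 29.1% against 4.26% of regulatory T and 13.4% against 3.56% of B cells. Within that library, cells with at least 2 such UMIs (35, 84, 17 and 31 cells in the same order) were also deeper than cells with none, with median UMIs of 9037 against 4427 in CD4 T, 10081.5 against 5130 in CD8 T, 12604 against 4441 in regulatory T and 6510 against 4231 in B cells. The part of depth in the levels that follow was not tested. Allogeneic cells had a lower median depth in each type, and the shares of cells with proliferation UMIs were not thinned to equal depth. The part of depth in those shares, and in the removal of cells with a proliferation UMI below, was not tested either. The summed level of each of the 5 role groups was higher in the cells with at least 2 such UMIs in all 4 types. For the mitochondrial sum in CD4 T cells, 911 (815 to 1015) against 890 (865 to 916) CPM, the intervals overlapped. Dnajb1 was at 58.3 against 38.0 CPM in CD4 T, 46.2 against 33.3 CPM in CD8 T and 57.1 against 34.5 CPM in regulatory T cells. In B cells it was at 34.4 (17.8 to 60.0, 12 UMIs) against 36.3 CPM, and its intervals overlapped in every type. Hsp90ab1 was at 1005 against 732 CPM in CD4 T, 1490 against 801 CPM in CD8 T, 1858 against 1025 CPM in regulatory T and 2274 against 1092 CPM in B cells. Hsp90b1 was at 242 against 161 CPM, 487 against 157 CPM, 596 against 198 CPM and 461 against 258 CPM. Hspd1 was at 567 against 180 CPM in B cells and at 172 against 144 CPM in CD4 T cells. Without any cell that had a proliferation UMI, the library difference was still called for 29 of the 32 ratios of the 8 members that were lower in all types. There Hsp90ab1 was at 404 CPM in allogeneic and 732 CPM in syngeneic CD4 T cells, 562 and 801 CPM in CD8 T cells, 373 and 1025 CPM in regulatory T cells and 382 and 1092 CPM in B cells. The 3 that were not called were Hsp90aa1 in CD4 T cells and Hsp90ab1 and Hspd1 in CD8 T cells.

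**Figure D4:**
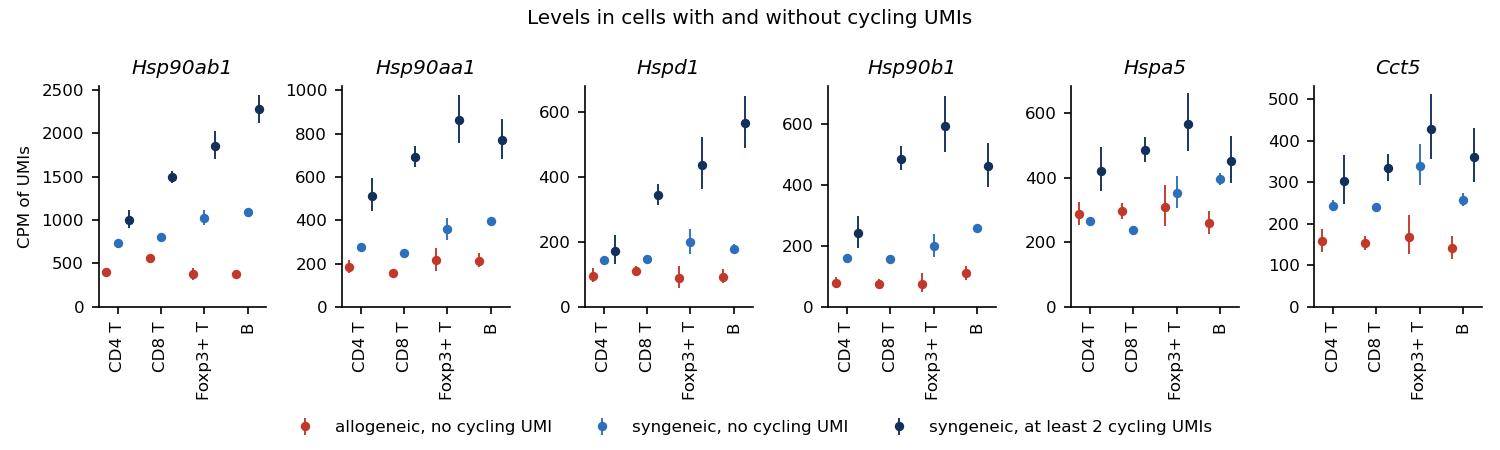
CPM of 6 members in cells without a proliferation UMI (red allogeneic, light blue syngeneic) and in syngeneic cells with at least 2 such UMIs (dark blue), by cell type, with exact 95% Poisson intervals. Dark blue points are above the light blue points throughout, and red points are below the light blue points except for Hspa5 in CD4 and CD8 T cells.

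Depth and RNA of other cells also differed between the libraries. In allogeneic cells with at least 3447 UMIs, the lowest number in the syngeneic library, 25 of 31 ratios of these 8 members were still called, and all 31 were below 1 (Hsph1 in regulatory T cells had no UMI left). That left 31 B cells, 39 regulatory T cells, 111 CD4 T cells and 326 CD8 T cells. In CD4 T cells from 3447 to 4917 UMIs, Hsp90b1 had 98.3 CPM in the allogeneic and 157 CPM in the syngeneic library. Above 4917 UMIs it was not lower there, at 180 CPM (114 to 270, 23 UMIs) against 173 CPM (158 to 189). At that depth it was lower in CD8 T cells (99.2 against 196 CPM) and regulatory T cells (129 against 358 CPM). Hspa8 rose with depth within a library: allogeneic CD8 T cells under 3447 UMIs had 719 CPM, those up to the syngeneic median of 4917 UMIs 912 CPM and those above it 1150 CPM, beside 1111 and 1363 CPM in the 2 upper ranges of the syngeneic library. When every cell was thinned to 1000 UMIs, 37.7% (33.2 to 42.3) of allogeneic CD8 T cells had an Hsp90ab1 UMI against 52.1% (50.3 to 53.9) of syngeneic ones. For B cells the shares were 30.1% (25.1 to 35.6) and 58.3% (55.2 to 61.3), after leaving out 25 shallower allogeneic cells, and the unthinned shares were 46.9% and 94.8%. Thinned shares for Hspa5 were 25.5% (21.6 to 29.7) and 21.2% (19.7 to 22.7) in CD8 T cells. The 5 erythroid markers were detected in all allogeneic cell types at a summed 3795 to 4855 CPM, against 35.2 to 100 CPM in syngeneic ones. The 4 neutrophil markers were at 1027 to 1174 CPM against 5.04 to 20.8 CPM. The 5 B cell markers were at a summed 53.3 to 80.0 CPM in allogeneic and 121 to 153 CPM in syngeneic T cells, and the T cell markers at 216 and 344 CPM in B cells. Allogeneic barcodes that were erythroid had 27.8 CPM of Hspa8 and 23.6 CPM of Hsp90ab1, and neutrophils had 763 CPM of Hspa8. The 1071 allogeneic barcodes under 200 genes had 182 CPM of Hspa8 and 174 CPM of Hsp90ab1. With haemoglobin, mitochondrial and ribosomal protein genes taken out of the total, all 32 ratios of the 8 members were still called. The part that depth and free RNA have in the differences was otherwise not tested.

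Partners of the chaperones were taken from lists of 68 genes, of which 61 were measured in at least 1 cell type. Of 20 partners of Hsp70 and Hsp90, 18 were measured in at least 1 cell type. Of these 18, 5 were called lower in at least 2 types, against 7.42% of the 8260 genes measured in any. Called higher in at least 2 types were 2, against 13.6%. Cdc37, which delivers kinases to Hsp90, was lower in all 4 (63.7 against 203 CPM in CD4 T, 89.7 against 198 in CD8 T, 80.0 against 211 in regulatory T and 68.4 against 176 in B cells). Chordc1, a co-chaperone of Hsp90, was also lower in all 4, with log2 ratios from −1.79 to −0.98. Stip1, which links Hsp70 to Hsp90, was lower in CD8 T and regulatory T cells (33.9 against 68.1 CPM and 31.4 against 90.7 CPM). St13, which holds Hsp70 in its client-bound state, was lower in regulatory T and B cells, and Cacybp, a partner of calcyclin and of Hsp90, in CD4 and CD8 T cells. On the other side was Fkbp5, the Hsp90 co-chaperone of steroid receptors that glucocorticoids induce. It had 161 against 13.6 CPM in CD4 T, 125 against 16.3 CPM in CD8 T, 111 against 14.1 CPM in regulatory T and 189 against 8.37 CPM in B cells. Its log2 ratios were 3.57 (3.17 to 3.97), 2.93 (2.68 to 3.19), 2.98 (2.07 to 3.98) and 4.5 (4.0 to 5.02). Unc45a, the Hsp90 co-chaperone of myosin, was higher in CD8 T (50.4 against 30.9 CPM), regulatory T (65.7 against 36.3 CPM) and B cells (53.4 against 34.4 CPM).

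The factor Hsf1 was at 25.9 against 21.6 CPM in CD4 T, 15.5 against 17.5 CPM in CD8 T and 22.4 against 24.1 CPM in B cells. It was called higher only in regulatory T cells (37.2 against 15.1 CPM, 13 and 15 UMIs). Hsbp1, which binds heat shock factors, was lower in regulatory T and B cells. Of 8 prefoldin and TRiC partners Pfdn4, a prefoldin subunit, was lower in all 4 types (log2 ratios from −1.21 to −0.90). No gene of the 5 for mitochondrial folding and proteolysis was called in 2 types. Trap1, the mitochondrial Hsp90, was called lower in CD8 T cells (19.9 against 35.0 CPM), and its ratio in regulatory T cells, log2 −0.90 (−2.31 to 0.29), was not called. It rests on 7 and 37 UMIs there.

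Of 16 genes of the unfolded protein response, 6 were called lower in at least 2 cell types and none was called higher in 2, beside the same 7.42% and 13.6% of all genes. In B cells 9 were called lower and 2 higher, Herpud1, a gene of reticulum protein degradation (283 against 125 CPM, log2 1.19, 0.96 to 1.41), and Atf6, a sensor of the response (44.7 against 26.2 CPM, log2 0.77, 0.20 to 1.31). Sdf2l1, a partner of BiP, was lower in all 4 (10.8 against 55.1 CPM, 15.9 against 47.7 CPM, 25.7 against 111 CPM and 13.7 against 69.0 CPM). Calr, the lectin chaperone calreticulin, was lower by 1.90-fold, 1.87-fold, 2.56-fold and 3.2-fold, and Manf, a secreted reticulum protein, by 1.52-fold, 1.74-fold, 1.85-fold and 2.42-fold. Creld2 and Pdia4 were lower in 3 types, and Pdia6 in 2. Of immediate early genes, which rise in cells that are stressed or handled, 3 of 8 measured were called higher in CD4 T cells, 2 of 7 in CD8 T, 6 of 9 in regulatory T and 4 of 8 in B cells. The shares of all genes called higher in these types are the 13.1% to 17.9% given above. Called lower were 1 in CD4 T, 1 in CD8 T, 0 in regulatory T and 1 in B cells, beside 7.13% to 12.9% of all genes. In CD4 T cells that gene was Nr4a1 (5 and 106 UMIs, log2 −1.65, −3.30 to −0.38). Junb had 487 against 161 CPM in CD4 T cells and was higher in all 4, as was Dusp1 (57.2 against 10.5 CPM in CD4 T, 140 against 3.99 CPM in B cells). Jun was higher in regulatory T and B cells. Egr1 was higher in CD4 T cells (log2 0.63, 0.006 to 1.21) and regulatory T cells, and lower in B cells (3 and 115 UMIs). Btg2 was lower in CD8 T and higher in B cells. Cirbp, a cold-inducible RNA-binding protein, was higher in all 4, at 625 against 231 CPM, 623 against 192 CPM, 617 against 181 CPM and 911 against 235 CPM. Rbm3, the other cold-induced gene of the list, was called in no type, with log2 ratios from 0.16 to 0.38.

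**Figure D5:**
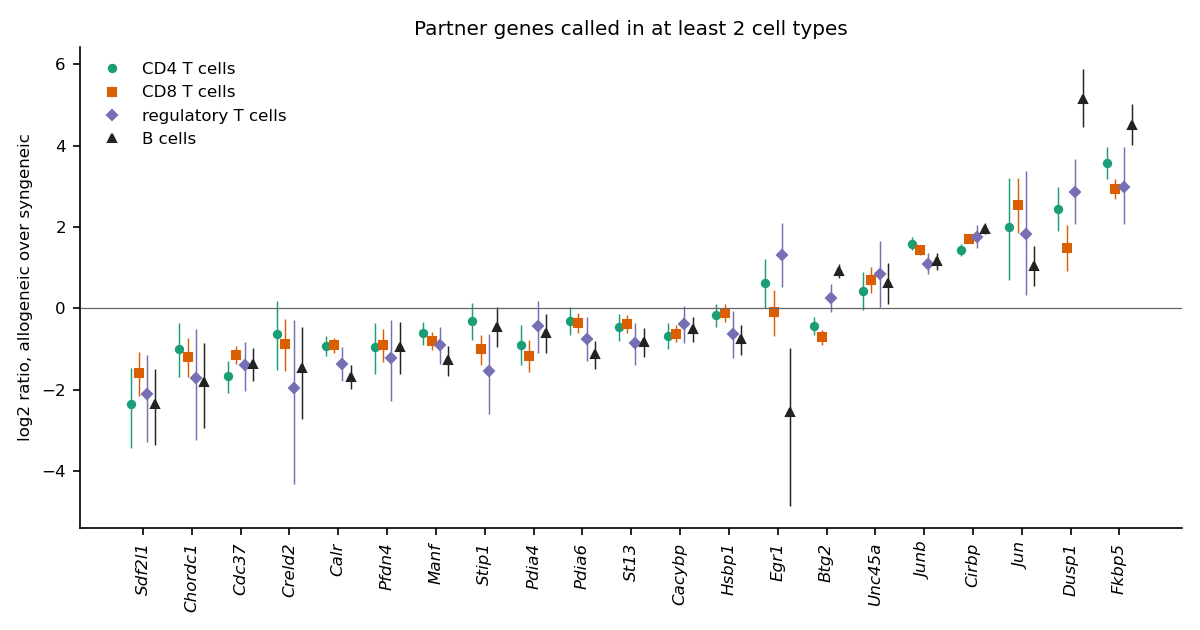
Log2 ratio, allogeneic over syngeneic, of the partner genes called in at least 2 cell types, with exact 95% intervals and 1 symbol per cell type. Sdf2l1, Chordc1 and Cdc37 lie below 0 and Fkbp5 and Dusp1 above 0 in all 4 types, whereas Egr1 and Btg2 lie on both sides.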

How the data were processed

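The authors deposited raw UMI counts per gene and barcode for each library, as whole numbers with no normalisation. Per the submitters' processing notes, the tools were STAR, Cell Ranger 2.2.0 and Seurat 2.3.4 and the build was mm10, with no step stated for each. The selection of barcodes before deposit is not stated in those notes or the labels. Members, lists and the rule for named genes were chosen with earlier results of these data known, and the cell type rules were set after the counts were seen. A cell needed at least 2 UMIs of its own lineage markers and 3 times those of other lineages. No doublet caller was run. Barcodes with at least 50% haemoglobin or 5% neutrophil marker UMIs were set apart. UMIs were summed per library and cell type (Python 3.11.15, scipy 1.17.1). Ratios have exact conditional binomial intervals, levels exact Poisson intervals and shares exact binomial (Clopper-Pearson) intervals, at 95%. The procedure was tested on simulated data. Named were members called in at least 1 cell type, up to 4 per role group with the highest mean CPM, and partners called in at least 2, with Hsf1. Hspa1a, Hspa1b, Hspb1, Tcp1 and Dnajb6, and the within-type quotients, and Herpud1, Atf6, Trap1, Nr4a1 and Rbm3, were added after values were seen. Near-identical copies, such as Hspa1a with Hspa1b and processed copies of Hspa8, Hsp90ab1 or Hspe1, can share or lose reads. Alternatives are below.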

Additional observations from a re-analysis of the deposited data

How the results depend on the processing

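Over 7 alternatives, the 8 members lower in all 4 cell types gave 223 ratios, all below 1, of which 200 were called and 205 were at least 1.5-fold. Of 1054 ratios of named genes under them, these members included, 987 stayed within the reported interval, 66 left it and, of those called, 1 changed sign: Dnajc25 in B cells, −0.052 among cells with at least 3447 UMIs. Members higher in CD4 T cells numbered 2, but 0 with stricter markers (at least 3 UMIs of the own lineage and 0 of the others) or thinned to 1000 UMIs, and 1 among the deep cells, with haemoglobin, mitochondrial and ribosomal genes out of the total, or after centring on the median ratio. That centring subtracts 0.12 from log2 ratios of regulatory T cells, 0.10 in CD4 T, 0.05 in CD8 T and 0.07 in B cells. In CD8 T cells 3 members higher became 7 with no minimum CPM. In regulatory T cells 2 higher became 0 among the deep cells, 1 after centring and 4 without cells with a proliferation UMI, and 13 lower became 7 thinned. In B cells 4 higher became 2 with stricter markers and 1 among the deep cells. At 2-fold, higher and lower numbered 2 and 2 in CD4 T, 1 and 2 in CD8 T, 1 and 6 in regulatory T and 2 and 9 in B cells. The summed stress-inducible log2 ratio was −0.41 thinned in CD8 T cells (−0.50 as reported), −0.47 with stricter markers in regulatory T cells (−0.72), and −0.76 among the deep cells and −0.34 thinned in B cells (−0.49). The cause of these changes was not tested. Of the 12, 12, 15 and 21 member calls in CD4 T, CD8 T, regulatory T cells and B cells, 9, 9, 10 and 14 remained with stricter markers, 8, 9, 9 and 10 among the deep cells and 5, 8, 7 and 16 thinned. No paired analysis was possible because each group has 1 library.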
